A study of Homo sapiens with 12 samples.

Results

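Chromosome 19 carries the densest collection of zinc finger genes in the human genome, and the results below describe its numbered ZNF genes in cultured keratinocytes. The members are the protein-coding genes of chromosome 19 whose symbol is ZNF followed by digits only, which gave 240 genes among the 58735 in the deposited tables. No measured value entered this choice. RNA was sequenced in bulk, after poly-A selection, from N/TERT-2G cells, an immortalised human skin keratinocyte line. Each well of a 6-well plate had received 100 pmol of siRNA with 5 µl of a lipid reagent, and fresh medium was given after 6 h. The 4 groups, with 3 libraries each, received siRNA against ATF3, a stress-induced transcription factor, siRNA against APOE, a lipid carrier protein, siRNA against CXCL14, an epithelial chemokine, or a negative control siRNA. All 12 libraries therefore share the transfection. The siRNA sequences and the time of harvest are not given in the sources used here, and the labels do not say whether replicates were separate cultures, so p-values measure only the spread between these libraries, which may be technical. The series as a whole concerns vulvar lichen sclerosus, an inflammatory skin disease, and these libraries address what changes in keratinocytes given siRNA against each of the 3 genes.

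Most of these genes encode proteins with a long row of C2H2 zinc fingers, small loops folded around a zinc ion, each of which reads a few bases of DNA. Many carry a KRAB domain at the N terminus, which binds the scaffold protein TRIM28. TRIM28 in turn brings in the histone H3K9 methyltransferase SETDB1 and other silencing factors, and the best known targets of this system are transposable elements. The genes arose by repeated tandem duplication, so that neighbours in a cluster often resemble each other in sequence.

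Translation of the annotated coding sequences gave a median of 12 fingers per member, with 36 in ZNF208 and 34 in ZNF729 at the top. A KRAB box was found in 201 members and not in 39. Where members lie more than 1000000 bases apart they were placed in separate clusters, which gave 16 clusters between chr19:2819874 and chr19:58481230 (build hg38). The largest hold 57 members, from ZNF628 to ZNF446, 39 members, from ZNF175 to ZNF331, and 37 members, from ZNF101 to ZNF254. The kinship of the genes can be read in their exons. The following run is shown because it occurs letter for letter in the coding sequence of 18 members, here at its place in ZNF430 on the plus strand, chr19:21057655-21057704 (GENCODE release 29, GRCh38), within a single exon. The capitals mark the codons of the short linker that joins neighbouring fingers.
ZNF430: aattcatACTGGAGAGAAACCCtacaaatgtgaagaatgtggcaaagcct

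Such stretches limit how well reads can be placed. Of the 240 members, 86 share 5% or more of their 50-base words with another annotated gene, and the share was 55.8% for ZNF468, 75.2% for ZNF320 and 86.8% for ZNF177. A gene on the opposite strand overlaps the span of 127 members, introns included. With counting not stated to use strand, reads in such overlaps may not be told apart. Values of these members are uncertain to that extent.

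Promoter sequence is shown for the same reason of kinship. RefSeq promoters, here 250 bases before to 50 after a start (GRCh38.p14), were matched to 209 members, and 97 of those share a run of at least 20 bases with the promoter of another member, in 15 groups. The first set comes from 3 neighbours on the minus strand, of which ZNF561 leads the rises described below. They share the run in capitals, which 0.0114% of all 35116 promoters hold and which contains the cyclic AMP response element TGACGTCA. The windows lie at chr19:9584534-9584573, chr19:9621235-9621274 and chr19:9675087-9675126.
ZNF121: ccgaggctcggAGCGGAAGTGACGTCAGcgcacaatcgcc
ZNF561: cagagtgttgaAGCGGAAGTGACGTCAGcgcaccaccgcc
ZNF562: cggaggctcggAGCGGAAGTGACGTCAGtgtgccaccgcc

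The second set comes from a group of 13 members between ZNF534 and ZNF813, to which several genes that fell with APOE siRNA belong. Only the first promoter of each gene by coordinate was searched for the run in capitals, which was found in 9 of the 13. Of all promoters, 0.117% hold it. All 9 are shown, whether or not the gene was called. ZNF611 (chr19:52735058-52735097) and ZNF320 (chr19:52897702-52897741) lie on the minus strand. The others lie on the plus strand, in the order printed, at chr19:52527615-52527654, chr19:52570234-52570273, chr19:53333696-53333735, chr19:53365661-53365700, chr19:53395096-53395135, chr19:53431931-53431970 and chr19:53467694-53467733.
ZNF808: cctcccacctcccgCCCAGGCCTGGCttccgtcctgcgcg
ZNF701: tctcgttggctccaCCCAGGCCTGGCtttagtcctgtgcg
ZNF611: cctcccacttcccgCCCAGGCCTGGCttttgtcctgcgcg
ZNF320: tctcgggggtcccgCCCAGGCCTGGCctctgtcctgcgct
ZNF845: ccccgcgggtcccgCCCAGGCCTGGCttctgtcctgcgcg
ZNF525: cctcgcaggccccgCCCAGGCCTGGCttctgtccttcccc
ZNF765: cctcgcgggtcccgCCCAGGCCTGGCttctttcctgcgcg
ZNF761: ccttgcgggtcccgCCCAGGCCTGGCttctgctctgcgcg
ZNF813: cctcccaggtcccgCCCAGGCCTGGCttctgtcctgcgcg

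Across all 256 promoters of members, the ETS-type motif CCGGAAGT stood in 41 (16%, either strand), against 4.14% of all promoters. The element TGACGTCA stood in 3.12% of them, against 1.85%, and the AP-1 motif TGACTCA in 2.34%, against 4.95%. No overlap between these motifs was removed. A match is a description of the letters and not a bound site.

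Total counts ran from 16225691 to 22246755 per library, so that 3 counts, the limit that a count of 0 allows, correspond to 0.135 to 0.185 CPM (counts scaled to a library of 1000000). All 10 keratinocyte markers were expressed, with a summed level of 22174 to 43809 CPM. The 5 immune and 5 endothelial markers each averaged under 1 CPM, as did 3 of 5 melanocyte markers and 4 of 5 fibroblast markers (COL1A2, PDGFRB, LUM and DCN). Each targeted gene was lower in its own group: ATF3 averaged 12.02 CPM with ATF3 siRNA and 42.2 CPM with control siRNA, APOE 0.190 CPM with APOE siRNA and 3.18 CPM with control siRNA, and CXCL14 0.0357 CPM with CXCL14 siRNA and 0.490 CPM with control siRNA. The targets also moved in other groups: CXCL14 averaged 8.56 CPM with APOE siRNA (log2 fold change 4.11 ± 0.48 against control siRNA, edgeR adjusted p = 3.48e-06). With CXCL14 siRNA, ATF3 averaged 68.3 CPM and APOE 5.88 CPM, both called higher than with control siRNA (log2 fold changes 0.70 and 0.89). Mitochondrial transcripts took 1.90 to 2.76% of counts.

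The members were transcribed at low levels. Only 11 had no count in any library, 29 more had counts but too few to be tested, and 200 were tested. Measured per length, in the deposited FPKM (fragments scaled by gene length and library size), the tested members had a median of 1.01 over all libraries, with 99 of them under 1 FPKM and 16 at 5 FPKM or more. Their median level in TMM-scaled CPM was 5.33, against 20.5 for all 14920 tested genes, and a test on fewer reads finds fewer differences. The most abundant per length were ZNF146 at 17.8 FPKM, ZNF787 at 16.02, ZNF581 at 14.9, ZNF561 at 11.2, ZNF524 at 10.7 and ZNF317 at 10.4. ZNF146 consists of fingers with hardly any other sequence, and of these 6 only ZNF561 and ZNF317 have a KRAB box. At the other end of the tested members stood ZNF442 at 0.0746 FPKM, ZNF626 at 0.0751 and ZNF546 at 0.0882.

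Members with and without a KRAB box differed in level. The 167 tested members with the box had a median of 0.898 FPKM, against 4.38 FPKM for the 33 without it. Their transcripts also differed in base composition, with a median GC content of 41.8% over all members with the box and 57.8% over those without. ZNF91, which silences SVA retrotransposons, averaged 1.29 FPKM, and ZNF274, which recruits SETDB1 to the 3′ ends of zinc finger genes themselves, averaged 6.38 FPKM. ZNF93, a repressor of LINE-1 elements, was at or near 0, with at most 0.121 CPM in a library, and was not tested. The KRAB repressor ZNF382 was not tested either, at 0.0562 to 0.438 CPM.

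The share of all counts that fell on the 240 members was highest with CXCL14 siRNA. It was 0.241, 0.230 and 0.221% of counts with CXCL14 siRNA, 0.175, 0.192 and 0.178% with ATF3 siRNA, 0.189, 0.182 and 0.176% with APOE siRNA, and 0.189, 0.192 and 0.188% with control siRNA. All 3 CXCL14 siRNA libraries lay above the 9 others, which overlapped. By an exact two-sided permutation test the difference between CXCL14 and control siRNA had p = 0.1, the smallest that 3 against 3 libraries allow. The exact permutation test gave p = 0.3 for ATF3 siRNA and p = 0.3 for APOE siRNA, and adjusted over the 3 comparisons every p was 0.3. In bulk RNA, fewer cells of a type and less RNA per cell cannot be told apart.

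**Figure D1:**
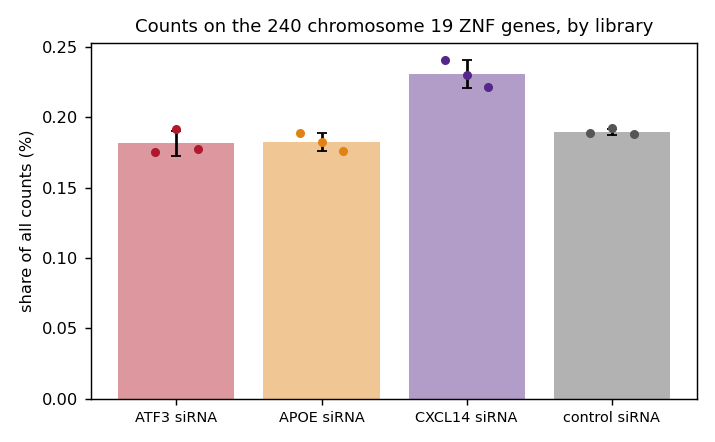
Share of all counts (%, vertical axis) that fell on the 240 members, by siRNA group. Points are libraries, bars the group mean and whiskers the SD (n = 3); the CXCL14 siRNA libraries lie at 0.221 to 0.241%, above all others.

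In the test across genes (edgeR's quasi-likelihood test with Benjamini-Hochberg adjustment, genes called at an adjusted p under 0.05), the number of members called differed widely between the 3 siRNAs. With ATF3 siRNA 2 members rose and 5 fell against control siRNA, out of 200, where 11.2% of all tested genes rose and 9.14% fell (20.4% in either direction). With APOE siRNA 20 rose and 23 fell, against 22.3 and 22.5% of all tested genes (44.8% in either direction). A fit adjusted for GC content gave 28 rises and 21 falls. With CXCL14 siRNA 58 rose and 14 fell, against 27.4 and 28.4% of all tested genes (55.8% in either direction). As shares of the 200, 29% rose and 7% fell with CXCL14 siRNA, so that the rises were near the background and the falls well under it. In the other comparisons with control siRNA both directions were under the background.

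The median log2 fold change of the 200 members was -0.04 with ATF3 siRNA, 0.02 with APOE siRNA and 0.22 with CXCL14 siRNA, where the median over all tested genes was 0.00, 0.01 and 0.01. With CXCL14 siRNA 147 of 200 members had a positive value. By mean level, 121 members (60.5%) were highest in the CXCL14 siRNA group, as were 33.6% of all tested genes. The shift was seen at each level of expression: with CXCL14 siRNA the median was 0.22 for the 99 members under 1 FPKM, 0.22 for the 85 from 1 to 5 FPKM and 0.31 for the 16 at 5 FPKM or more. The members' transcripts are also poorer in GC than those of other genes, with a median of 42.4%, against 48.5% for all tested genes. Other values moved with the groups as well: the summed level of the 10 keratinocyte markers averaged 35242 CPM with ATF3 siRNA, 42591 with APOE siRNA, 22652 with CXCL14 siRNA and 34235 with control siRNA (3 libraries each). The 5 fibroblast markers summed to 35.6, 81.2, 16.1 and 29.1 CPM in the same order of groups, and replication-dependent histone transcripts took 0.00968, 0.0155, 0.0251 and 0.0118% of counts. Their part in the members' values was not tested. When the fit was adjusted for GC content, the CXCL14 siRNA median was 0.35 and 98 members rose and 12 fell, so that this count depends on the adjustment.

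**Figure D2:**
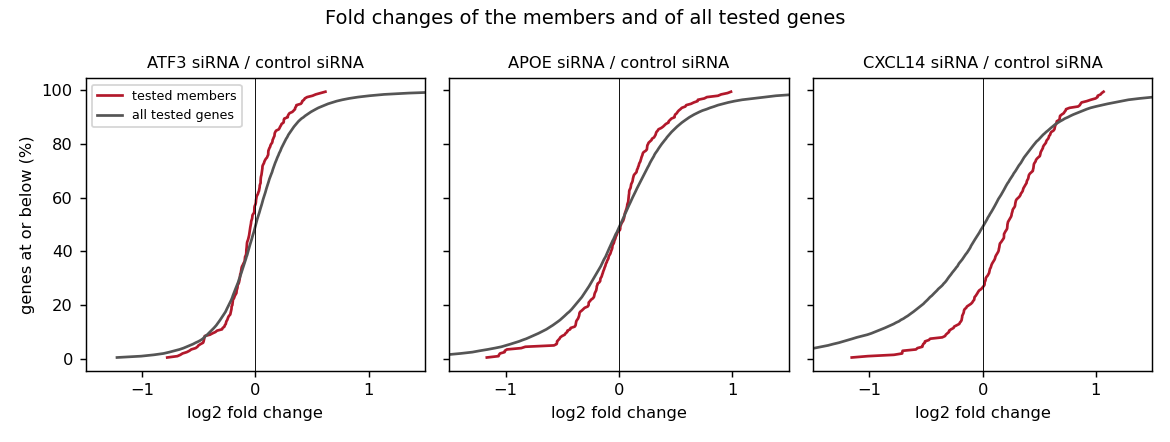
Cumulative distribution of log2 fold changes (horizontal axis) for the 200 tested members and for all 14920 tested genes, with the share of genes at or below each value (%) on the vertical axis, for ATF3, APOE and CXCL14 siRNA over control siRNA. The members' curve is shifted to the right with CXCL14 siRNA, with a median of 0.22 against 0.01, and crosses that of all genes near 0 with APOE siRNA.

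Other gene sets measured in the same way put these counts in context. The 210 tested ZNF genes of other chromosomes had 8 rises and 12 falls with ATF3 siRNA, 26 and 43 in the APOE siRNA group, and 41 and 46 in the CXCL14 siRNA group. Their median log2 fold change with CXCL14 siRNA was 0.04. The 724 other tested protein-coding genes of chromosome 19 had 170 rises and 22 falls with ATF3 siRNA, 293 and 83 in the APOE siRNA group, and 322 and 121 in the CXCL14 siRNA group, with medians of 0.13, 0.23 and 0.23. Those genes were more abundant, with a median of 37.5 CPM. Of the 9 tested chromosome 19 zinc finger genes with other kinds of symbol, 3 rose and 3 fell with APOE siRNA and 2 fell with CXCL14 siRNA. The differences between sets were not tested.

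**Figure D3:**
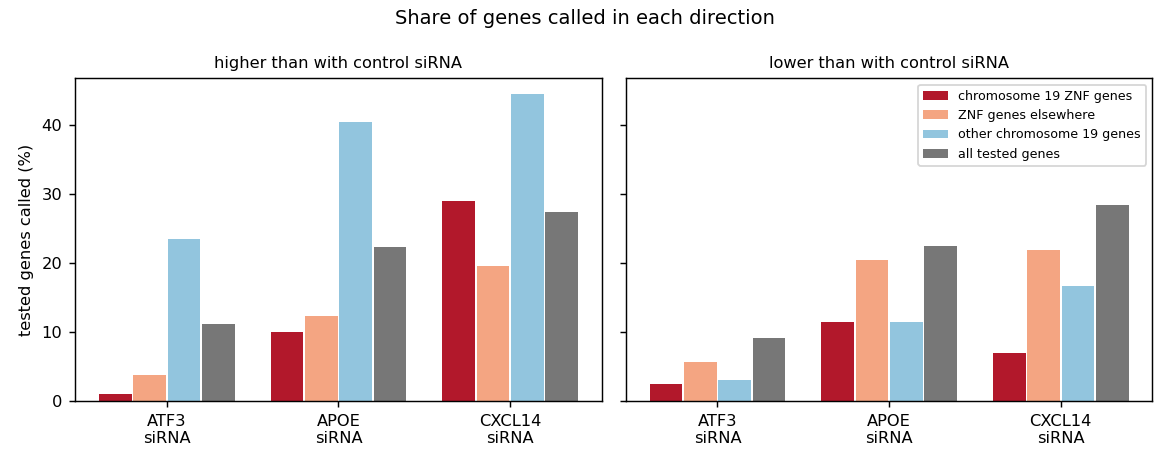
Share of tested genes (%, vertical axis) called higher (left) or lower (right) than with control siRNA, for the chromosome 19 ZNF members, ZNF genes of other chromosomes, other protein-coding genes of chromosome 19 and all tested genes. The members' bar for higher genes reaches 29% with CXCL14 siRNA, and their bars for lower genes stay at 11.5% or less.

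With CXCL14 siRNA 45 of 167 tested KRAB members rose (26.9%, near the 27.4% of all tested genes) and 12 fell (7.19%, against 28.4%). The members named next are among those with the smallest adjusted p. ZNF561, a KRAB member at chr19:9604680-9621399, had 98.8, 95.6 and 93.4 CPM with CXCL14 siRNA, against 62.1, 54.6 and 56.1 CPM with control siRNA. No CXCL14 siRNA library came near the control range, and the log2 fold change was 0.74 ± 0.07 (SE, edgeR adjusted p = 2.93e-07). ZNF548, in the last cluster of the chromosome, had 12.8, 10.8 and 10.9 CPM with CXCL14 siRNA, against 5.80, 7.05 and 6.07 CPM with control siRNA (0.86 ± 0.12, edgeR adjusted p = 1.18e-05). Its groups did not overlap either. ZNF30 had 7.70, 6.81 and 7.14 CPM with CXCL14 siRNA, against 3.75, 2.61 and 3.97 CPM with control siRNA, a log2 fold change of 1.07 ± 0.16. ZNF383, another KRAB member, rose by 0.86 ± 0.12, ZNF431 by 0.68 ± 0.12 and ZNF772 by 0.60 ± 0.10. In each of these the CXCL14 siRNA libraries lay above all control libraries. The highest log2 fold change among the 58 rises was 1.34, 4 were at 1 or more, and the median was 0.58.

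ZNF468, described further below, rose with CXCL14 siRNA as well. It had 34.8, 30.7 and 29.3 CPM there, against 19.2, 20.004 and 20.1 CPM with control siRNA, a log2 fold change of 0.68 ± 0.09 (edgeR adjusted p = 1.41e-05). All CXCL14 siRNA libraries were above all control libraries. As given above, 55.8% of its 50-base words also occur in other genes.

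Of the 7 tested members named for textbook roles, ZNF91, ZNF274 and ZNF304 rose with CXCL14 siRNA and ZNF649, given further below, fell. ZNF91 had 22.0, 17.9 and 15.01 CPM with CXCL14 siRNA, against 13.2, 14.1 and 11.8 CPM with control siRNA, and rose by 0.49 ± 0.16 on the log2 scale (edgeR adjusted p = 0.0177). The groups did not overlap, but the call was lost without replicate 1 of CXCL14 siRNA, with a log2 fold change of 0.33, and without replicate 3 of control siRNA, with 0.42. ZNF274 had 60.3, 60.9 and 59.3 CPM, against 50.6, 51.8 and 55.8 CPM with control siRNA (0.19 ± 0.06, edgeR adjusted p = 0.0161). ZNF304, a KRAB member, rose by 0.29 ± 0.09 (edgeR adjusted p = 0.015). The calls of ZNF274 and ZNF304 were both lost without replicate 2 of CXCL14 siRNA and without replicate 1 or 2 of control siRNA, where their log2 fold changes ran from 0.16 to 0.18 and from 0.25 to 0.27. ZNF331, an imprinted KRAB gene, had 0.22 ± 0.14, and ZNF224, a KRAB repressor of the aldolase A gene, 0.22 ± 0.17. Neither passed the test. ZNF175, which in macrophages represses the HIV-1 promoter, had 0.24 ± 0.15 and did not pass either.

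The 14 falls with CXCL14 siRNA were of like size, from -0.46 to -1.24 with a median of -0.58. ZNF507, which has no KRAB box, had 21.0, 19.9 and 16.7 CPM with CXCL14 siRNA, against 33.7, 29.6 and 30.6 CPM with control siRNA, and its log2 fold change was -0.71 ± 0.10 (edgeR adjusted p = 9.38e-06). Every CXCL14 siRNA library was lower than every control library. ZNF101 had 9.12, 8.83 and 9.40 CPM with CXCL14 siRNA, against 16.1, 13.3 and 15.4 CPM with control siRNA (-0.71 ± 0.11). ZNF440, at -0.53 ± 0.10, ZNF614, at -0.53 ± 0.11, and ZNF347, at -0.78 ± 0.16, also fell without overlap. The lowest values were those of 2 rare transcripts. ZNF724 had 0.791, 0.599 and 0.497 CPM with CXCL14 siRNA, against 1.75, 1.64 and 1.05 CPM with control siRNA (-1.24 ± 0.30), and ZNF792 fell by 1.16 on the log2 scale. ZNF649, a KRAB protein reported to repress AP-1 and serum response reporters, had 9.12, 7.68 and 7.23 CPM with CXCL14 siRNA, against 9.07, 12.9 and 11.3 CPM with control siRNA. Its groups overlapped by 1 library and the log2 fold change was -0.47 ± 0.13 (edgeR adjusted p = 0.00672). The call was lost in the fit adjusted for GC content, with -0.30.

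With APOE siRNA 23 members fell against control siRNA, and ZNF468 fell most. ZNF468, at chr19:52838008-52890375, had 8.02, 7.39 and 7.98 CPM with APOE siRNA, against 19.2, 20.004 and 20.1 CPM with control siRNA. The groups were far apart, and the log2 fold change was -1.34 ± 0.11 (edgeR adjusted p = 5.06e-08). ZNF28, whose gene at chr19:52797409-52857600 overlaps that of ZNF468 on the same strand, had 7.44, 8.10 and 8.42 CPM with APOE siRNA, against 18.9, 17.8 and 17.0 CPM with control siRNA (-1.17 ± 0.11, edgeR adjusted p = 4.40e-07). Here too every APOE siRNA library was lower than every control library. How reads in the shared stretch were counted is not known, so the values of both genes are uncertain to that extent. ZNF146, in another cluster at chr19:36214602-36238774 and with no shared 50-base words, had 46.2, 39.3 and 43.7 CPM with APOE siRNA, against 93.5, 89.2 and 84.8 CPM with control siRNA (-1.05 ± 0.09, edgeR adjusted p = 1.53e-07). The most abundant member per length in these cells thus fell, although a gene on the opposite strand overlaps it. ZNF525 fell by 1.06, ZNF845 by 1.01, ZNF813 by 0.99, ZNF888 by 0.86 and ZNF430 by 0.82 on the log2 scale, and in none of these did the groups overlap. Of all 23 falls, 7 were at least 2-fold.

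Of the 23 falls with APOE siRNA, 13 lay in 1 cluster. In the cluster from ZNF175 to ZNF331 (chr19:51571298-53580269), 13 of 37 tested members fell with APOE siRNA (35.1%, against 22.5% of all tested genes) and 3 rose (8.11%, against 22.3%), with a median log2 fold change of -0.25. ZNF28, ZNF468, ZNF888, ZNF845, ZNF525 and ZNF813 lie within it, as do ZNF841, ZNF766, ZNF480, ZNF808, ZNF83, ZNF600 and ZNF347, which also fell. The 3 that rose were ZNF614, ZNF610 and ZNF665. In the same cluster 9 members rose and 4 fell with CXCL14 siRNA, and 0 rose and 3 fell with ATF3 siRNA. In the last cluster, from ZNF628 to ZNF446 (chr19:55476332-58481230), 12 of 53 tested members rose with APOE siRNA (22.6%, near the 22.3% of all tested genes) and 0 fell (against 22.5%). In the same cluster 22 rose (41.5%, against 27.4%) and 1 fell (1.89%, against 28.4%) with CXCL14 siRNA. In the pericentromeric cluster from ZNF101 to ZNF254 (chr19:19668796-24129961), where ZNF91 lies, 0 of 22 rose with APOE siRNA and 4 fell (18.2%, under the 22.5% of all tested genes), namely ZNF101, ZNF14, ZNF430 and ZNF675. The clusters were compared by counts alone, after their values were seen.

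**Figure D4:**
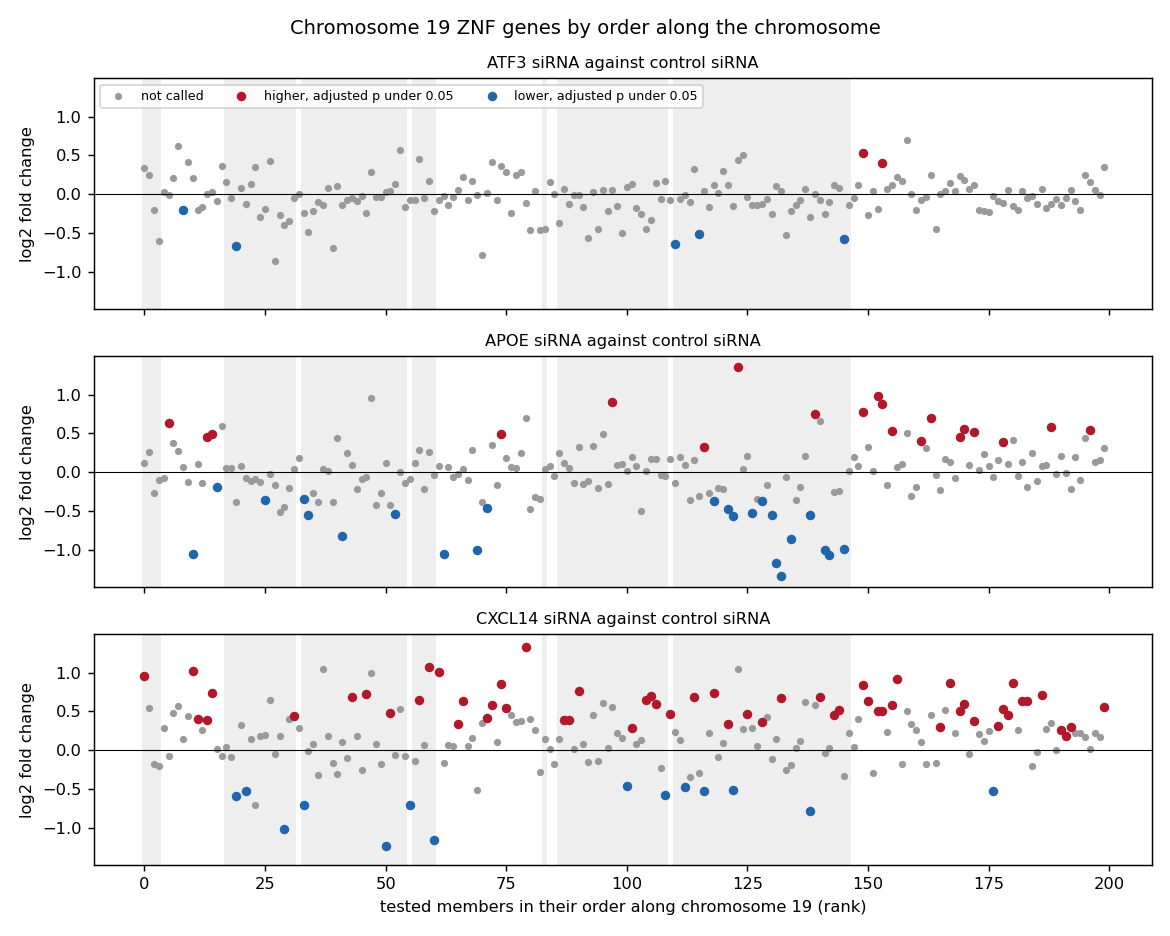
Log2 fold change (vertical axis) of each of the 200 tested members in its order along chromosome 19 (horizontal axis, rank), for ATF3, APOE and CXCL14 siRNA against control siRNA from top to bottom. Grey and white bands are clusters, and coloured points passed an adjusted p of 0.05; with APOE siRNA 13 lower points stand in the second-last cluster and 12 higher and 0 lower points in the last.

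Among the 15 promoter groups, the largest, from ZNF93 to ZNF254, had 2 falls and 0 rises with APOE siRNA in 18 tested members. The group of 13 members within the cluster from ZNF175 to ZNF331 was singled out because it holds ZNF468, which fell most. It had 12 tested members, of which 6 fell and 0 rose, against 22.5 and 22.3% of all tested genes. The 6 were ZNF808, whose loss impairs pancreas development in humans, ZNF83, ZNF468, ZNF845, ZNF525 and ZNF813. Of them ZNF808, ZNF845, ZNF525 and ZNF813 carry the run shown above. ZNF468 and ZNF83 are not among the 9 found to carry it, but any further promoters of these genes were not searched. The carriers ZNF701, at -0.34, and ZNF320, at -0.06, did not pass the test with APOE siRNA. Neither did the carriers ZNF611, at -0.17 ± 0.19, ZNF765, at -0.25 ± 0.14, and ZNF761, at -0.25 ± 0.11. ZNF765 and ZNF761 rose with CXCL14 siRNA, by 0.45 ± 0.13 and 0.52 ± 0.11 (edgeR adjusted p = 0.00753 and 0.000745). A shared promoter run thus went with calls in some members and not in others. The same holds of the 3 genes with the longer run. ZNF121 and ZNF561 rose with APOE siRNA by 0.45 ± 0.10 and 0.49 ± 0.07, while ZNF562 had 44.3, 41.9 and 41.0 CPM with APOE siRNA, against 47.9, 46.7 and 50.3 CPM with control siRNA (-0.19 ± 0.07, edgeR adjusted p = 0.0499).

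The 20 rises with APOE siRNA included several small members without a KRAB box. ZNF581, with 4 fingers, had 32.8, 33.8 and 37.4 CPM with APOE siRNA, against 18.01, 19.3 and 19.4 CPM with control siRNA (0.87 ± 0.11, edgeR adjusted p = 6.43e-06). ZNF580, with 3 fingers, overlaps it on the same strand and had 26.4, 32.4 and 33.6 CPM with APOE siRNA, against 14.8, 13.7 and 18.1 CPM with control siRNA (0.99 ± 0.17). ZNF524, with 4 fingers and reported to bind telomere repeats, had 16.3, 17.0 and 17.9 CPM with APOE siRNA, against 10.03, 9.67 and 10.2 CPM with control siRNA (0.77 ± 0.13). In these 3 genes every APOE siRNA library was above every control library. ZNF561 had 88.2, 77.7 and 76.9 CPM with APOE siRNA, also above the whole control range given above. ZNF772 rose by 0.55 ± 0.10, ZNF584 by 0.54 ± 0.11 and ZNF358 by 0.64 ± 0.14. Over all members without the KRAB box, 6 of 33 rose with APOE siRNA (18.2%) and 2 fell (6.06%), and of those with the box 14 of 167 rose (8.38%) and 21 fell (12.6%), with medians of 0.12 and -0.01. All 4 shares were under those of all tested genes. The same split gave 13 rises (39.4%) and 2 falls (6.06%) without the box and 45 and 12 with it for CXCL14 siRNA, with medians of 0.26 and 0.22. In the fit adjusted for GC content, the medians without and with the box were 0.05 and 0.06 with APOE siRNA. With CXCL14 siRNA they were 0.27 and 0.36, so that the split depends on the adjustment. The difference between the 2 kinds was not tested.

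The APOE gene itself lies on chromosome 19, at chr19:44905754-44909393, so its neighbours among the members were examined. The nearest tested members are ZNF296, 162107 bases away, and ZNF180, 405230 bases away. ZNF296 had a log2 fold change of -0.04 ± 0.18 and ZNF180 of -0.03 ± 0.14 with APOE siRNA, and neither passed the test. Of the 23 tested members of their cluster, from ZNF575 to ZNF296, 1 rose and 0 fell with APOE siRNA. Of all tested genes 22.3% rose and 22.5% fell. The median level in this cluster was 3.49 CPM, against 20.5 CPM for all tested genes.

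Among the members with textbook roles, ZNF91 had 11.3, 9.42 and 8.29 CPM with APOE siRNA, against 13.2, 14.1 and 11.8 CPM with control siRNA. Its groups did not overlap, but it missed the threshold narrowly (-0.43 ± 0.17, edgeR adjusted p = 0.0529) and passed it under several other settings. ZNF304 had -0.23 ± 0.10, and ZNF274, ZNF331, ZNF224, ZNF649 and ZNF175 lay between -0.14 and 0.10. None of these passed.

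With ATF3 siRNA the fewest members were called. ZNF175 had 6.59, 4.44 and 4.42 CPM with ATF3 siRNA, against 8.10, 8.76 and 7.50 CPM with control siRNA (-0.64 ± 0.16, edgeR adjusted p = 0.00902). ZNF823 had 2.99, 3.43 and 2.54 CPM with ATF3 siRNA, against 5.32, 4.26 and 4.65 CPM with control siRNA (-0.66 ± 0.17, edgeR adjusted p = 0.0121). The other falls were ZNF813, at -0.58 ± 0.18, ZNF615, at -0.51 ± 0.16, and ZNF317, at -0.20 ± 0.07. Both rises were members without a KRAB box. ZNF524 had 13.9, 13.6 and 15.8 CPM with ATF3 siRNA, against 10.03, 9.67 and 10.2 CPM with control siRNA (0.53 ± 0.13, edgeR adjusted p = 0.00749). ZNF581 had 22.4, 23.4 and 29.3 CPM with ATF3 siRNA, against 18.01, 19.3 and 19.4 CPM with control siRNA (0.40 ± 0.11, edgeR adjusted p = 0.0161). The groups did not overlap in any of the 7, but this adds little to a call. Among called members it held for 20 of 20 rises and 23 of 23 falls with APOE siRNA. With CXCL14 siRNA it held for 54 of 58 rises and 13 of 14 falls. Of the 7 members called with ATF3 siRNA, only ZNF175 and ZNF524 kept the call under every alternative tried. Leaving out 1 library gave 1 to 6 rises and 2 to 4 falls; without replicate 1 of control siRNA there were 1 and 2, with replicate 1 of ATF3 siRNA left out 6 and 3, and with replicate 2 of control siRNA left out 4 and 2. The fit adjusted for GC content gave 6 of each.

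ZNF524 and ZNF581 were the members that rose in all 3 comparisons with control siRNA, which share the control libraries. Of all tested genes, 11.2% rose with ATF3 siRNA, 22.3% with APOE siRNA and 27.4% with CXCL14 siRNA. The share of all tested genes that rose in all 3 was not counted. With CXCL14 siRNA ZNF524 had 14.7, 17.4 and 21.4 CPM (0.84 ± 0.12, edgeR adjusted p = 2.55e-05), and ZNF581 had 24.7, 25.8 and 30.2 CPM (0.51 ± 0.11, edgeR adjusted p = 0.000722). Both lie in the last cluster. ZNF581 was highest with APOE siRNA, and its level there exceeded that with CXCL14 siRNA (0.36 ± 0.10, edgeR adjusted p = 0.00697).

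**Figure D5:**
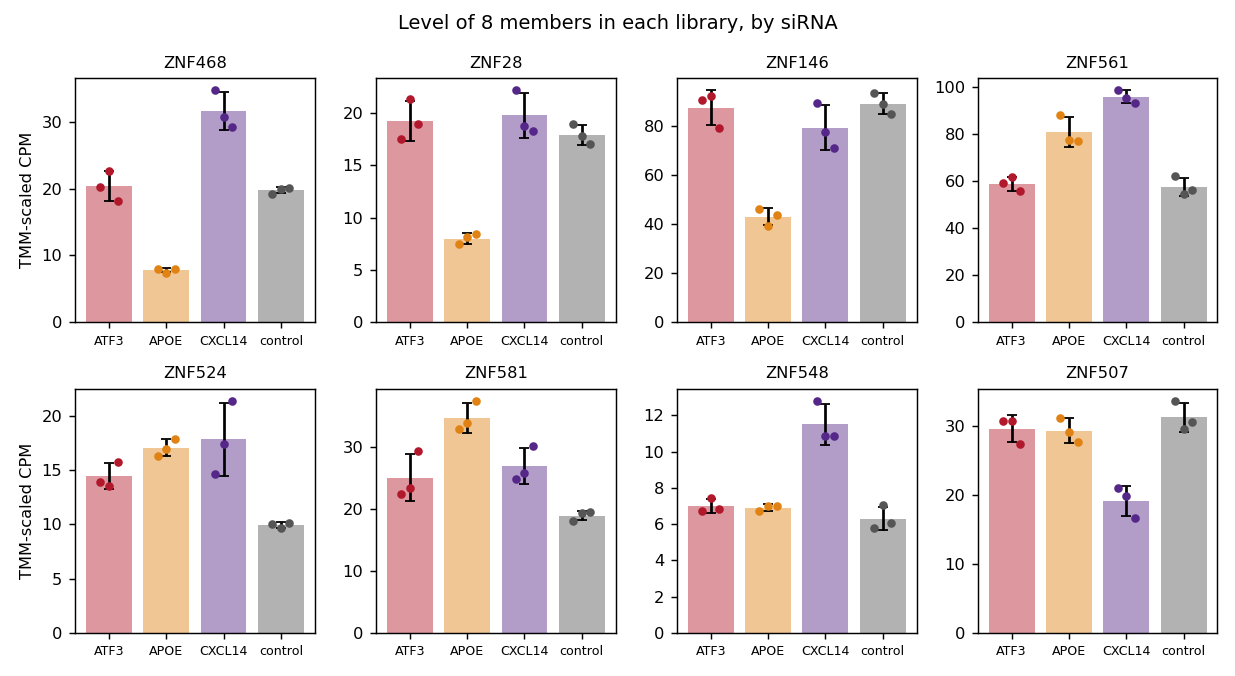
TMM-scaled CPM (vertical axis, from 0) of 8 members in every library, by siRNA against ATF3, APOE and CXCL14 and control siRNA. Points are libraries, bars the group mean and whiskers the SD (n = 3); ZNF468, ZNF28 and ZNF146 are low with APOE siRNA, ZNF561, ZNF548 and ZNF468 high and ZNF507 low with CXCL14 siRNA.

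In direct comparisons between the targeting siRNAs the control libraries are no side of the contrast, although they enter the filter, the scaling and the estimate of spread. Between ATF3 and APOE siRNA 19 members were higher and 26 lower with ATF3 siRNA, where 20.3% of all tested genes were higher and 17.9% lower (38.2% in either direction). ZNF468 led here too, at 20.3, 22.7 and 18.2 CPM with ATF3 siRNA, against 8.02, 7.39 and 7.98 CPM with APOE siRNA (log2 fold change 1.39 ± 0.10, edgeR adjusted p = 4.22e-08). ZNF28, ZNF146 and ZNF525 were also higher with ATF3 siRNA, by 1.27, 1.02 and 0.97 on the log2 scale. Lower with ATF3 siRNA were ZNF580, at -1.17 ± 0.17, ZNF561, at -0.46 ± 0.07, ZNF264, at -0.47 ± 0.10, and ZNF121, at -0.44 ± 0.10. Without replicate 2 of ATF3 siRNA 12 members were higher, and without replicate 1 of ATF3 siRNA 17 were lower.

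Between ATF3 and CXCL14 siRNA 13 members were higher and 68 lower with ATF3 siRNA, where 28.4% of all tested genes were higher and 25.3% lower (53.7% in either direction). The median log2 fold change of the members was -0.26. ZNF561 had 59.1, 61.6 and 55.8 CPM with ATF3 siRNA, against 98.8, 95.6 and 93.4 CPM with CXCL14 siRNA (-0.70 ± 0.07, edgeR adjusted p = 4.91e-07). ZNF266, a KRAB member from the same cluster as ZNF561, was lower with ATF3 siRNA by -0.61 ± 0.09, and ZNF507, ZNF614 and ZNF724 were higher by 0.63, 0.57 and 1.26.

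Between APOE and CXCL14 siRNA 20 members were higher and 67 lower with APOE siRNA, where 28.9% of all tested genes were higher and 26.6% lower (55.5% in either direction). The median of the members was -0.21. ZNF468 had the smallest adjusted p of any member, at 8.02, 7.39 and 7.98 CPM with APOE siRNA, against 34.8, 30.7 and 29.3 CPM with CXCL14 siRNA (-2.02 ± 0.10, edgeR adjusted p = 1.27e-10). ZNF28 was lower with APOE siRNA by -1.31 ± 0.11, ZNF146 by -0.88 ± 0.09 and ZNF525 by -1.09 ± 0.13. A slightly larger difference, chosen after its values were seen, was that of ZNF559, at 1.95, 0.931 and 0.893 CPM with APOE siRNA, against 5.85, 5.45 and 4.93 CPM with CXCL14 siRNA (-2.07 ± 0.26). ZNF614, lower with CXCL14 siRNA and higher with APOE siRNA against control siRNA, led the other direction at 17.9, 17.8 and 16.7 CPM with APOE siRNA, against 9.97, 9.32 and 9.63 CPM with CXCL14 siRNA (0.86 ± 0.10). With counts scaled by library size alone, where the median of all genes shifted to -0.11 in this comparison and to -0.10 between ATF3 and CXCL14 siRNA, 10 members were higher and 85 lower with APOE siRNA. Without replicate 2 of APOE siRNA 13 were higher.

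Of 42 genes listed for the corepressor machinery through which KRAB proteins act, all were tested. The list also holds the zinc finger genes ZNF445 and ZFP57. With ATF3 siRNA 1 rose and 4 fell, with APOE siRNA 4 rose and 13 fell, and with CXCL14 siRNA 4 rose and 23 fell. The medians were -0.07, -0.12 and -0.25. The falls made up 9.52, 31.0 and 54.8% of the list, against 9.14, 22.5 and 28.4% of all tested genes. The rises made up 2.38, 9.52 and 9.52%, against 11.2, 22.3 and 27.4%. The median level of the list was 63.1 CPM, against 20.5 CPM for all tested genes. TRIM28, the scaffold, averaged 570.0 ± 121 CPM with ATF3 siRNA, 660.1 ± 138 with APOE siRNA, 493.7 ± 86.6 with CXCL14 siRNA and 601.9 ± 98.4 with control siRNA (SD, n = 3 each) and passed in none of the 3 comparisons. SETDB1 fell with APOE siRNA by 0.33 on the log2 scale (edgeR adjusted p = 0.00481) and passed in no other comparison with control siRNA.

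Among the corepressor genes named here, the largest changes were falls, those of MORC3 and UHRF1 with CXCL14 siRNA. MORC3, an ATPase of nuclear bodies that silences endogenous retroviruses in mouse cells, had 18.7, 15.5 and 17.9 CPM with CXCL14 siRNA, against 58.4, 54.3 and 53.0 CPM with control siRNA (-1.67 ± 0.09, edgeR adjusted p = 4.60e-10). UHRF1, needed to maintain DNA methylation after replication, fell by 1.35 on the log2 scale. In both genes every CXCL14 siRNA library was lower than every control library. With APOE siRNA MTA2, a subunit of the NuRD complex, fell by 0.86 and DNMT3B, a DNA methyltransferase, by 1.20. With ATF3 siRNA the MORC3 fall was 0.45 and that of FAM208A, a subunit of the HUSH silencing complex, 0.40. These values stand beside those of the members, and any relation between the corepressors and the members was not tested.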

How the data were processed

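The authors deposited raw counts per gene and FPKM per gene and library. The submitters' processing notes name hg38 as build and, as tools, HISAT2 2.0.5 and featureCounts 1.5.0-p3. The annotation and the strand setting used are not given in the sources used here. GENCODE release 29 holds all 58735 gene IDs, and the 240 members have equal coordinates in it. Columns of the deposited tables were mapped to samples by target and replicate number.

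Counts were filtered with filterByExpr, scaled by TMM and fitted with edgeR 4.0.16 (glmQLFit and glmQLFTest, R 4.3.3) over all 12 libraries with 1 term per group. P-values were adjusted over 14920 genes per comparison. The SE is the size of the log2 fold change divided by the square root of F. CPM are TMM-scaled, and the deposited FPKM were used for levels between genes. Counting error alone does not describe the spread: replicates varied by 7.21 to 11.6 times the counting variance over all genes and 2.03 to 3.24 times over members.

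KRAB boxes and fingers were found by pattern in proteins translated from GENCODE 29. Named members are, per siRNA against control siRNA, the 8 rises and 8 falls with the smallest adjusted p, 4 per direction in direct comparisons, the 6 highest and 3 lowest in FPKM, those called the same way in all 3, and members with textbook roles. A corepressor gene that the rule names is not reported here. Further members of a cluster or promoter group were named after their values were seen. The members, lists and named genes were chosen with earlier results of these data known. Calls in pairs of siRNAs against the common control share its libraries. The test was checked on simulated data. Alternatives were DESeq2 1.42.0 (size factors, Wald test), library size alone, other filters, limma 3.58.1 (voom, log2 FPKM with a pseudocount of 1 or 0.1), only the groups compared, a replicate block and leaving out each library. Offsets for GC content and length were chosen after seeing the data. The main fit does not pair samples by replicate number. The labels state no such pairing, and the check given in the closing section cannot exclude one.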

Additional observations from a re-analysis of the deposited data

How the results depend on the processing

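Counts of called members stayed within 1.5 times the reported ones under DESeq2 size factors, its Wald test, limma, both other filters, the length offset and the replicate block. The GC offset gave 6 rises with ATF3 siRNA and 98 with CXCL14 siRNA against control siRNA, and with APOE siRNA 28 rises and 21 falls, where 57.1% of the called members were higher, against 46.5% without it. A fit of only the groups compared gave 3 falls with ATF3 siRNA. Library size alone gave 10 members higher with APOE than with CXCL14 siRNA. The cause of these differences was not tested. With each library left out in turn, rises and falls against control siRNA numbered 1 to 6 and 2 to 4 with ATF3 siRNA, 17 to 19 and 16 to 23 in the APOE siRNA group, and 46 to 56 and 10 to 17 in the CXCL14 siRNA group. Higher and lower members numbered 12 to 19 and 17 to 21 for ATF3 against APOE siRNA, 10 to 14 and 49 to 62 for ATF3 against CXCL14 siRNA, and 13 to 19 and 46 to 64 for APOE against CXCL14 siRNA. Of 2054 values of named genes under these settings, 1990 kept their side of the threshold and direction, 34 lost the call, 30 gained one and 0 called values reversed. Deviations of same-numbered libraries correlated at -0.02 to 0.23 over 18 pairs, 11 of them over 0.1. Those of differently numbered libraries correlated at -0.24 to 0.10, and 11 of 12 libraries correlated best with their own number. Whether the numbers pair the samples was not tested beyond these correlations and the replicate block. With the replicate block, 3 members rose and 7 fell with ATF3 siRNA, 24 and 27 in the APOE siRNA group, and 70 and 16 in the CXCL14 siRNA group against control siRNA, and no named call was lost. Depth limits the rarer members most: 99 of 200 tested members lie under 1 FPKM, of which 18 rose and 5 fell with CXCL14 siRNA.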
